A study of Mus musculus with 8 samples.

Results

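The genes described here decide what a cell does with pyruvate, the end product of glycolysis. They are 10 of the 49452 genes in the table of brown adipose tissue (BAT) RNA-Seq, and they were picked by symbol: the pyruvate dehydrogenase kinases Pdk1, Pdk2 and Pdk4, the pyruvate dehydrogenase phosphatases Pdp1 and Pdp2, pyruvate carboxylase Pcx, the mitochondrial pyruvate carrier subunits Mpc1 and Mpc2, and the lactate dehydrogenase subunits Ldha and Ldhb. The rule itself uses no measured value, but the list was drawn up with earlier results of these data known. All 10 were above the filter for low values in every comparison.

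BAT is the heat-producing fat depot of mice. RNA was measured in 8 libraries from male C57BL/6 mice with no genetic change, in 4 groups of 2. One pair of groups was aged 10 to 12 weeks and was either kept at 22 °C (replicates 4 and 7) or held at 4 °C for 24 h (replicates 2 and 11). By the study's methods the cold mice spent 20 h at 4 °C and then 4 h more without food, and it is not clear from these methods if the 22 °C mice were fasted too, so cold and fasting cannot be told apart in this comparison. The other pair was aged 32 weeks and had been fed for 28 weeks either a high-fat diet (HFD, replicates 2 and 6) or the control food (replicates 6 and 8), which the labels call normal chow (NCD) and the study's text calls a control diet. The name NCD is kept here. Values are given below in that order of replicates.

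Pyruvate reaches the mitochondrial matrix through a carrier made of the MPC1 and MPC2 proteins. Inside, the pyruvate dehydrogenase (PDH) complex turns it into acetyl-CoA, which commits carbohydrate to oxidation or fat synthesis, while pyruvate carboxylase turns it into oxaloacetate. PDH kinases phosphorylate the complex and switch it off, and PDH phosphatases switch it back on. Pdk4 is widely known as the kinase induced by fasting and fatty acid use. Lactate dehydrogenase interconverts pyruvate and lactate in the cytosol as tetramers of A (Ldha) and B (Ldhb) subunits.

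Between 23543 and 32686 genes were above 0 FPKM (fragments per kilobase of transcript, scaled to library size) in each library. From the steps between low values, 1 fragment on a 2-kilobase transcript was worth 0.00429 to 0.00605 FPKM. The lowest value of any of the 10 genes, Pdp1 in NCD replicate 8, then stood for about 705 fragments, a counting error of 3.8%, so counting error was small for each of the 10 genes. It is larger for low genes named below, such as Fgf21 and Ldhc. The satellite-repeat gene Gm10800 was above 100 FPKM in replicate 4 at 22 °C, replicate 11 at 4 °C, replicate 8 on NCD and replicate 2 on HFD. These libraries are called satellite-high and the others satellite-low. In 3 libraries (both at 22 °C and NCD replicate 6) X and Y genes are all listed at 0, so these chromosomes were left out of the tests. The sample descriptions number NCD replicate 6 in the style of the temperature libraries and the other 3 diet libraries in another style. What the numbers stand for is not stated, and a difference between the styles cannot be told apart from the spread between the NCD libraries. Without NCD replicate 6 none of the 10 genes passed on HFD, and Ldha and Ldhb had 0.46 and 0.14. Among genes averaging 1 FPKM or more the median log2 fold change was 0.20 in the cold and 0.28 on HFD (−0.05 and −0.07 after median centring), and the fold changes below stand against those shifts.

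The tissue label was checked against marker lists. The 8 brown adipocyte markers summed to 2771 and 3773 FPKM at 22 °C, 10114 and 8390 at 4 °C, 8641 and 5031 on NCD and 4270 and 6572 on HFD. Skeletal muscle markers moved with the groups: the 11 markers matched of 12 listed, none of them at 0 in any library, summed to 530 and 106 FPKM at 22 °C, 4079 and 1841 at 4 °C, 543 and 1447 on NCD and 174 and 14.8 on HFD. Muscle also expresses the 10 genes, and the bulk tissue does not tell a different share of cells from a different RNA content per cell. Macrophage markers, 6 of 6 matched, summed to 36.3 to 104 FPKM on NCD and 176 to 227 on HFD. The 5 white adipocyte markers summed to 141 and 80.3 FPKM at 22 °C, 251 and 128 at 4 °C, 21.2 and 12.4 on NCD and 172 and 180 on HFD. On HFD 3 of them (Lep, Nnat and Mest) passed the test. Retn (log2 fold change 0.58) and Agt (−0.03) did not. The 3 erythroid markers matched of 5 listed summed to 156 and 99.6 FPKM on NCD and 194 and 393 on HFD, and the 4 endothelial markers to 44.7 and 52.6 on NCD and 79.0 and 72.0 on HFD.

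The table gives positions on GRCm38, which for all 10 genes equal those of the GENCODE M21 annotation. Pdk1 is at chr2:71873224-71903858 (plus strand), Pdk2 at chr11:95026258-95041354 (minus) and Pdk4 at chr6:5483351-5496309 (minus), each with 11 exons in its longest transcript. Pdp1 is at chr4:11958184-11966452 (minus) and Pdp2 at chr8:104591451-104599026 (plus), with 2 exons each. Pcx spans chr19:4510472-4621752 (plus, 21 exons in its longest transcript). Mpc1 is at chr17:8282904-8297661 (plus) and Mpc2 at chr1:165460637-165481214 (plus). Ldha is at chr7:46841475-46855627 (plus) and Ldhb at chr6:142490249-142507957 (minus), both with 8 exons in the longest transcript. Mpc1 overlaps 4930506C21Rik on the opposite strand, which reached 20 FPKM, and 85.4% of the 50-base words of its processed pseudogene Mpc1-ps (4.88 to 11.1 FPKM) also occur in Mpc1 transcripts, so a small part of the Mpc1 values is uncertain. The pseudogenes Ldha-ps and Ldha-ps2 stayed at or below 0.55 FPKM.

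The promoters are shown for Pdk1, Pdk4, Ldha and Ldhb, the genes with the largest log2 fold changes within the cold or the HFD comparison. RefSeq entries (GRCm38.p6) matched 9 of the 10 genes with 14 start sites. Each line gives the 250 bases before a start site, 5′ to 3′ on the gene's strand, and for Pdk1 and Ldha the more upstream of their start sites. Capitals mark matches, on either strand, to TGACGTCA (the cAMP response element), AGGTCA (the core site of nuclear receptors), ACGTG (the core of the hypoxia response element), CCAAT (the CCAAT box) or GGGCGG (the GC box). The windows are chr2:71872974-71873223 (plus), chr6:5496279-5496528 (minus), chr7:46845554-46845803 (plus) and chr6:142507958-142508207 (minus).
Pdk1: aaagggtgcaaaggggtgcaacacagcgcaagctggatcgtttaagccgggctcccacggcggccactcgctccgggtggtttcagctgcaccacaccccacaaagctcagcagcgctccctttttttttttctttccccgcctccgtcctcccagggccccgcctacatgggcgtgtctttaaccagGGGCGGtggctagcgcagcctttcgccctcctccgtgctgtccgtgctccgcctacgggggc
Pdk4: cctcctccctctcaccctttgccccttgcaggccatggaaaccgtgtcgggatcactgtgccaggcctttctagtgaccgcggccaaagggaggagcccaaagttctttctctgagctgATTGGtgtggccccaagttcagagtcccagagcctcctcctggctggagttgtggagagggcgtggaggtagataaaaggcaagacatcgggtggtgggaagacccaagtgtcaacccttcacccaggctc
Ldha: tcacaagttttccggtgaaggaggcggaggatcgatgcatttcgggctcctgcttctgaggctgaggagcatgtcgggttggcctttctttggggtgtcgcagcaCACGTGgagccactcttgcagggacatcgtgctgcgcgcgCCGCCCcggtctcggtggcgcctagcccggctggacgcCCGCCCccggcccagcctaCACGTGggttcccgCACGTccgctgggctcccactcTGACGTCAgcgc
Ldhb: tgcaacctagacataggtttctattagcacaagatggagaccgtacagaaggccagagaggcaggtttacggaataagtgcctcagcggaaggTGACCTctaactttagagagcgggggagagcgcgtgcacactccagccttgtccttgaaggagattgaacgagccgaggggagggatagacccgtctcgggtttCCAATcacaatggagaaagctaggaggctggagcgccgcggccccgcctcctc

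In the Ldha window a TGACGTCA lay 12 to 5 bases before the start. On either strand 1.55% of the 32851 promoter windows hold one, and no other window of the 9 genes did. The windows on record cover 300 bases, 250 of them before the start. Only those 250 bases were searched, for the 9 genes and for all windows. ACGTG was found in the windows of Ldha, Pdk2, Pdp2 and Pcx and in 16.6% of all windows; in the Ldha window its matches on both strands overlap within CACGTG at 2 places. AGGTCA occurred in the Ldhb window, in 1 of the Mpc1 windows and in 14.0% of all windows. CCAAT was in the windows of 7 genes (33.8% of all windows) and GGGCGG in those of 6 (32.7%). The longer TCAAGGTCA, bound by estrogen-related receptors, and DR1, the spaced direct repeat of AGGTCA bound by PPAR, which both contain AGGTCA, were in none of the 14 windows and in 0.387% and 0.0335% of all windows. These matches describe letters in the windows and not binding.

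In the cold, none of the 10 genes passed the test used here, limma on log2(FPKM + 1) with an adjusted p under 0.05 and at least a 2-fold change, which 1.44% of the 17477 genes tested passed. At an unadjusted p under 0.05 stood 6 of the 10, against 4280 of the 17477. For 7 genes (Pdk2, Pdk4, Pdp2, Mpc1, Mpc2, Ldha and Ldhb) the cold pair of libraries exceeded the pair at 22 °C, as it did for 37.9% of all genes tested, and for Pdk1 it lay lower, as for 20.6%. Pcx and Pdp1 overlapped. The median log2 fold change of the 10 genes was 0.68, against 0.07 over all genes tested and 0.20 over those averaging 1 FPKM or more.

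The kinase Pdk4 was the most abundant PDH kinase in all 8 libraries and had the largest cold difference of the 10 genes over all 4 libraries, but not without 4 °C replicate 2 (1.16, with 1.23 for Ldha), within satellite-high libraries or with the muscle covariate described below, and after quantile normalization (1.14) Pdk1 was further from 0 (−1.26). It stood at 366 and 271 FPKM at 22 °C, 1340 and 706 at 4 °C, 633 and 477 on NCD and 314 and 625 on HFD. Both cold libraries were above both libraries at 22 °C, and 4 °C replicate 2 was the highest of all. Cold minus 22 °C gave 1.62 on the log2 scale (SE 0.43, adjusted p 0.104), a 3.08-fold difference. Within satellite-high libraries it was 0.95, where Ldha had 1.501 and Mpc2 1.38, and within satellite-low libraries 2.30. On HFD the groups overlapped, and the difference of −0.31 on the log2 scale (SE 0.68, adjusted p 0.87) turned to 0.19 without HFD replicate 2.

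Pdk1, a kinase known as a hypoxia-inducible gene, went the other way. Its levels were 25.8 and 33.6 FPKM at 22 °C, 14.0 and 18.7 at 4 °C, 29.4 and 15.6 on NCD and 6.77 and 8.08 on HFD. It was the only one of the 10 genes that was lower in both treated libraries of both comparisons, and the HFD libraries held its lowest values. Taken singly, a lower treated pair was seen for 20.6% of genes in the cold and for 5.80% on HFD. The share of genes with both was not counted. The cold log2 fold change of Pdk1 was −0.83 (SE 0.25, adjusted p 0.13), and the one on HFD −1.42 (SE 0.41, adjusted p 0.207), the latter a 2.67-fold lower level. The cold value was −0.45 within satellite-high libraries, −1.21 within satellite-low libraries and −0.08 with the muscle covariate described below. With library type as a covariate Pdk1 passed on HFD (adjusted p 0.0102, limma). In that fit 745 of the 17543 genes tested passed, against 12 without the covariate. The log2 fold change of Pdk1 on HFD was −1.85 without NCD replicate 8 and −0.98 without NCD replicate 6. Over all alternatives its adjusted p on HFD ran from 0.0102 to 0.762.

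Pdk2, the broadly expressed kinase, stood at 10.9 and 10.9 FPKM at 22 °C, 12.03 and 22.02 at 4 °C, 6.50 and 28.2 on NCD and 16.7 and 9.71 on HFD. Outside the 22 °C group its higher value was in the satellite-high library each time. Its log2 fold changes, 0.54 in the cold (SE 0.31, adjusted p 0.338) and −0.10 on HFD (SE 0.64, adjusted p 0.958), changed sign with the muscle marker score as a covariate (−0.52 and 0.98). The cold value was 0.13 without 4 °C replicate 11 and 0.95 without 4 °C replicate 2. The HFD value was −1.09 without NCD replicate 6, 0.88 without NCD replicate 8 and 0.26 without HFD replicate 6. The 4th kinase gene, Pdk3, is on the X chromosome, is listed at 0 in the 3 libraries without X values and was at 0.476 to 1.17 FPKM in the other 5.

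**Figure D1:**
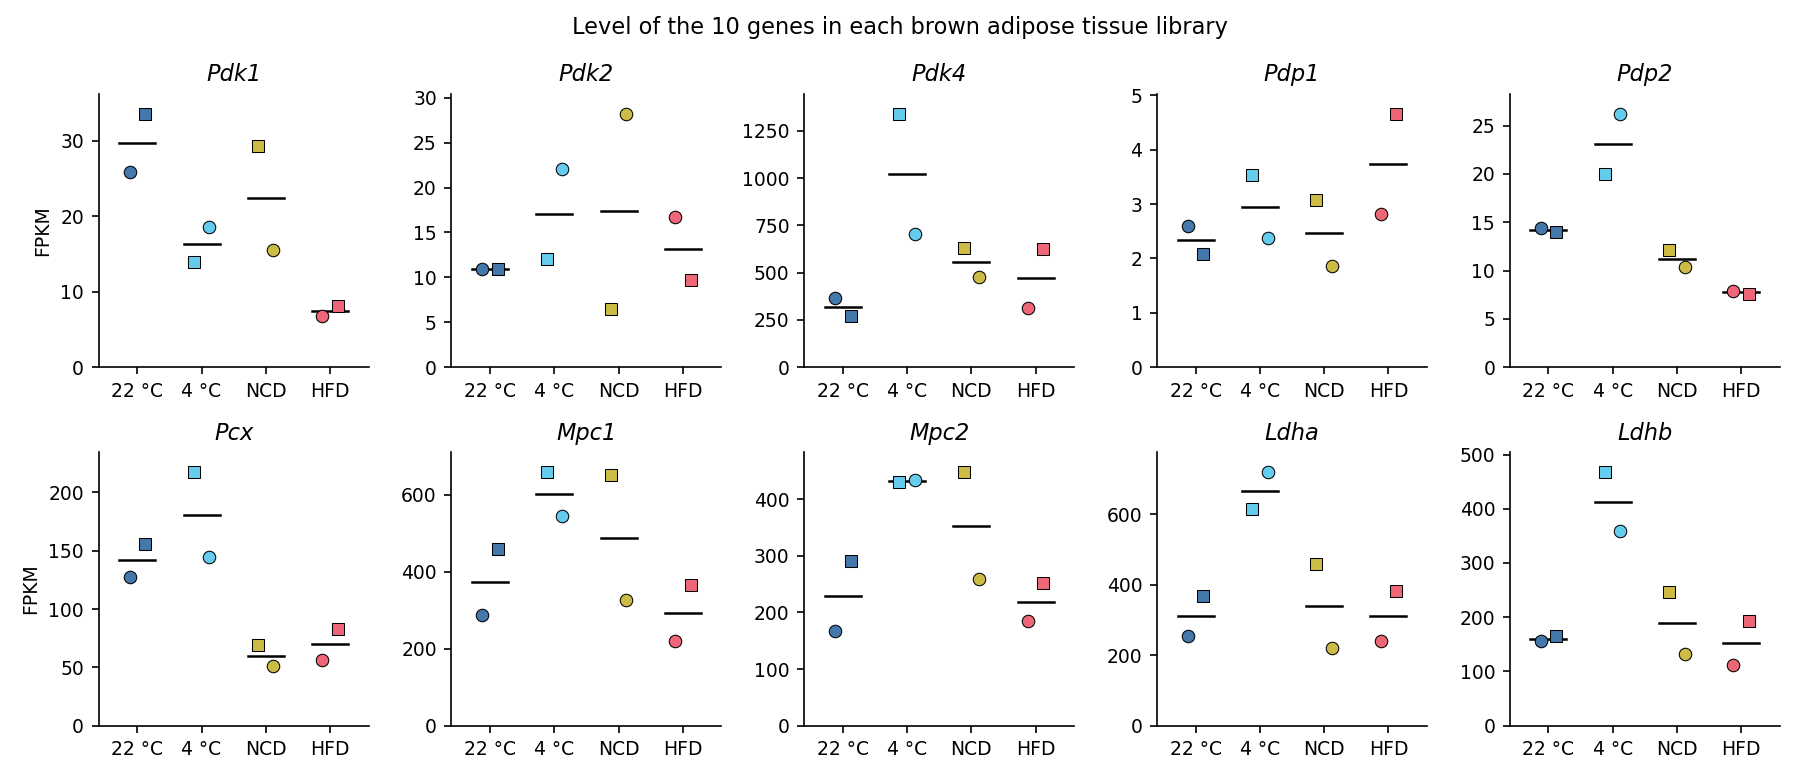
FPKM of each gene (vertical axis, linear, from 0) in the 4 groups (horizontal axis); each symbol is 1 library (circles satellite-high, squares satellite-low) and each bar the mean of 2. Pdk4 reaches 1340 and 706 FPKM in the cold libraries, whose controls show 366 and 271, and Pdk1 is lowest on HFD at 6.77 and 8.08.

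The summed phosphatases were far below the summed kinases, of which Pdk4 was the main part, while Pdp2 stood above Pdk2 in both libraries at 22 °C and above Pdk1 in both cold libraries. Pdp2, the insulin-responsive form, stood at 14.4 and 14.0 FPKM at 22 °C, 19.99 and 26.2 at 4 °C, 12.1 and 10.3 on NCD and 7.91 and 7.62 on HFD. Replicates lay close together except in the cold, both cold libraries were above both at 22 °C, and both HFD libraries were below both on NCD. The log2 fold change was 0.65 in the cold (SE 0.22, adjusted p 0.154) and −0.48 on HFD (SE 0.33, adjusted p 0.562). Both values depended on scaling, with 0.39 and −0.83 after median centring and 0.23 and −0.78 after quantile normalization. Pdp1, the calcium-sensitive form, was the least abundant of the 10 genes, at 2.59 and 2.08 FPKM at 22 °C, 3.53 and 2.38 at 4 °C, 3.07 and 1.86 on NCD and 2.82 and 4.66 on HFD. Its groups overlapped in both comparisons (log2 fold change 0.23, SE 0.22, adjusted p 0.551 in the cold; 0.45, SE 0.34, adjusted p 0.595 on HFD), and its cold value was −0.024 after median centring. On HFD it had 0.09 after median centring, 0.10 after quantile normalization and 0.16 to 0.73 with 1 library left out. In the cold Pdp1 had 0.02 to 0.44 with 1 library left out and 0.59 with the muscle covariate.

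The carrier subunits kept close company. Mpc1 stood at 288 and 460 FPKM at 22 °C, 659 and 544 at 4 °C, 651 and 327 on NCD and 221 and 367 on HFD. Mpc2 stood at 166 and 290, 429 and 434, 447 and 259, and 185 and 252 FPKM in the same order. Both genes were higher in both cold libraries, and Mpc2 was also lower in both HFD libraries, whereas HFD replicate 6 exceeded NCD replicate 8 for Mpc1. Cold minus 22 °C gave a log2 value of 0.72 for Mpc1 (SE 0.36, adjusted p 0.289) and 0.97 for Mpc2 (SE 0.36, adjusted p 0.185). On HFD it was −0.70 for Mpc1 (SE 0.67, adjusted p 0.686) and −0.66 for Mpc2 (SE 0.61, adjusted p 0.671), within the spread between the NCD libraries. Leaving out 1 library moved the cold values to 0.38 to 1.05 for Mpc1 and 0.57 to 1.37 for Mpc2, the lowest without 22 °C replicate 4 and the highest without 22 °C replicate 7, and quantile normalization left 0.17 and 0.45. The HFD values moved to −1.19 to −0.20 for Mpc1 and −1.05 to −0.26 for Mpc2, the extremes being without NCD replicate 8 and without NCD replicate 6. Across the 8 libraries log2(FPKM + 1) of both genes had a Pearson r of 0.945, a description over libraries that share their groups and scaling.

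Pcx, which refills the citric acid cycle, differed more between the sets of mice than within them. It stood at 127 and 156 FPKM at 22 °C, 217 and 145 at 4 °C, 69.2 and 50.9 on NCD and 56.2 and 83.2 on HFD. All 4 libraries of the temperature mice (127 to 217 FPKM) were above all 4 of the diet mice (50.9 to 83.2 FPKM), as 4.05% of 10883 autosomal genes averaging 1 FPKM or more were. Of the 10 genes only Pdp2 showed the same order, with 14.0 to 26.2 against 7.62 to 12.1 FPKM. The temperature and diet mice differ in age and in feeding, which cannot be told apart here. All diet libraries but NCD replicate 6 are also numbered in another style than the temperature libraries, and the part of this was not tested. Within each comparison the Pcx groups overlapped, with log2 fold changes of 0.33 in the cold (SE 0.31, adjusted p 0.556) and 0.20 on HFD (SE 0.48, adjusted p 0.883), and both signs depended on scaling (−0.21 in the cold after quantile normalization, −0.16 on HFD after median centring). With 1 library left out the cold value ran from 0.04 to 0.62.

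The lactate dehydrogenase subunits were both higher in the cold. Ldhb stood at 155 and 166 FPKM at 22 °C, 467 and 358 at 4 °C, 247 and 133 on NCD and 112 and 193 on HFD. Its replicates at 22 °C lay close together, and both cold libraries were above all 6 other libraries. Cold minus 22 °C gave 1.34 on the log2 scale (SE 0.29, adjusted p 0.0726), a 2.54-fold difference and the lowest adjusted p of the 10 genes. Ldhb passed after median centring (log2 fold change 1.09, adjusted p 0.0397, limma) and with library type as a covariate (1.34, adjusted p 0.0376), and over all alternatives its adjusted p ran from 0.0376 to 0.316. Over all genes, median centring passed 757 and library type 859 of the 17477 tested, against 252 in the fit used here. Quantile normalization left 0.76 for Ldhb (adjusted p 0.189, limma). Ldha stood at 253 and 367 FPKM at 22 °C, 615 and 718 at 4 °C, 459 and 220 on NCD and 241 and 381 on HFD. The cold libraries again exceeded the other 6, and the log2 fold change was 1.12 (SE 0.34, adjusted p 0.129), a 2.18-fold difference, and it was 0.64 after quantile normalization. A cold pair above the 22 °C pair was seen for 37.9% of the 17477 genes. The share of genes with the cold pair above all 6 other libraries, as for Ldhb and Ldha, was not counted.

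On HFD both lactate dehydrogenase genes overlapped their controls. The log2 fold change was −0.07 for Ldha (SE 0.66, adjusted p 0.974) and −0.30 for Ldhb (SE 0.60, adjusted p 0.859). Leaving out 1 library moved these from −0.60 to 0.46 for Ldha and from −0.74 to 0.14 for Ldhb. The other lactate dehydrogenase genes did not add much: Ldhd, a D-lactate dehydrogenase, was at 17.8 to 52.1 FPKM and the testis form Ldhc at no more than 0.0633.

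**Figure D2:**
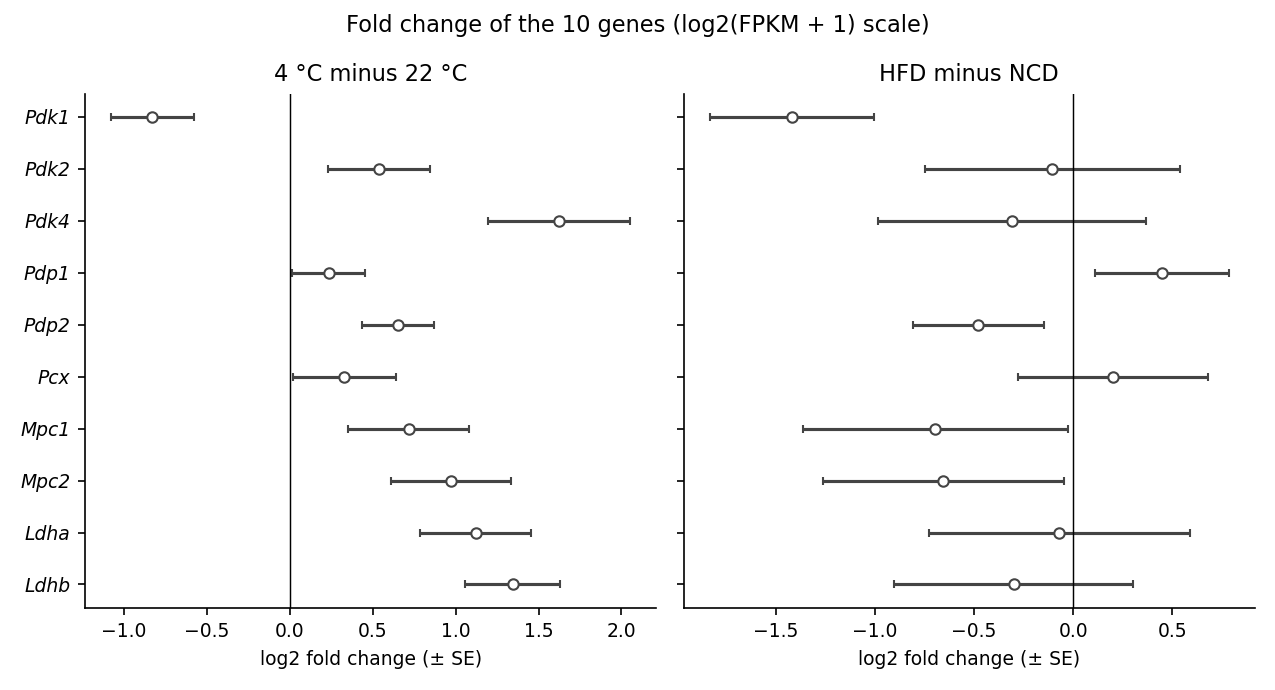
Log2 fold change (horizontal axis, log2(FPKM + 1) scale) with its SE for the 10 genes in both comparisons, from limma on 2 libraries against 2. Open circles mark genes that did not pass the test, which is all 10 in both panels; Pdk4 has the largest cold value (1.62) and Pdk1 the lowest value on HFD (−1.42).

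The HFD comparison as a whole gave fewer separations. None of the 10 genes passed, and 0.0684% of the 17543 genes tested did (limma). Pdk1 alone had an unadjusted p under 0.05, as 2532 of all genes tested had. Both HFD libraries were below both NCD libraries for 3 of the 10 genes (Pdk1, Pdp2 and Mpc2), as 5.80% of all genes tested were. No gene of the 10 was higher in both HFD libraries, as 39.9% of all genes tested were, and 7 overlapped. Pdp2 and Mpc2 were higher in both cold libraries and lower in both HFD libraries, an order shown by 2.96% of the 16559 genes tested in both comparisons. The median log2 fold change of the 10 was −0.30, against 0.18 over all genes tested and 0.285 over those averaging 1 FPKM or more.

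Levels of 1 gene against another within a library do not depend on the scaling of that library. The 3 kinases summed to 403 and 316 FPKM at 22 °C, 1366 and 746 at 4 °C, 669 and 521 on NCD and 337 and 643 on HFD, and Pdk4 made up 85.9% to 98.1% of it. Pdk1 held 6.42% and 10.7% of that sum at 22 °C, 1.02% and 2.50% at 4 °C, 4.39% and 2.99% on NCD and 2.01% and 1.26% on HFD. Pdk4 over Pdk1 came to 14.2 and 8.06 at 22 °C, 96.0 and 37.8 at 4 °C, 21.6 and 30.6 on NCD and 46.4 and 77.4 on HFD. It was higher in both treated libraries of both comparisons, although on HFD Pdk4 itself overlapped its controls and Pdk1 did not.

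The kinase sum exceeded the phosphatase sum by 23.7 and 19.6 times at 22 °C, by 58.1 and 26.1 times at 4 °C, by 44.0 and 42.7 times on NCD and by 31.4 and 52.4 times on HFD. The cold libraries were above those at 22 °C, and the HFD libraries spanned those on NCD. Pdp2 made up 84.8% and 87.1% of the phosphatase sum at 22 °C, 85.0% and 91.7% at 4 °C, 79.8% and 84.8% on NCD and 73.7% and 62.0% on HFD. The HFD shares were the lowest of the 8 libraries. The share of Ldhb in the lactate dehydrogenase sum came to 38.0% and 31.1% at 22 °C, 43.2% and 33.3% at 4 °C, 35.0% and 37.6% on NCD and 31.7% and 33.6% on HFD. It overlapped in the cold, while both HFD values were below both on NCD.

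Mpc1 over Mpc2 came to 1.73 and 1.59 at 22 °C, 1.53 and 1.25 at 4 °C, 1.46 and 1.26 on NCD and 1.19 and 1.45 on HFD, lower in both cold libraries. Pcx set against Pdhb, which encodes the beta subunit of the first PDH enzyme, gave 1.06 and 0.751 at 22 °C, 0.554 and 0.417 at 4 °C, 0.220 and 0.396 on NCD and 0.506 and 0.395 on HFD. The 22 °C values were the highest of the 8. These ratios rest on 2 libraries a group and carry no test.

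**Figure D3:**
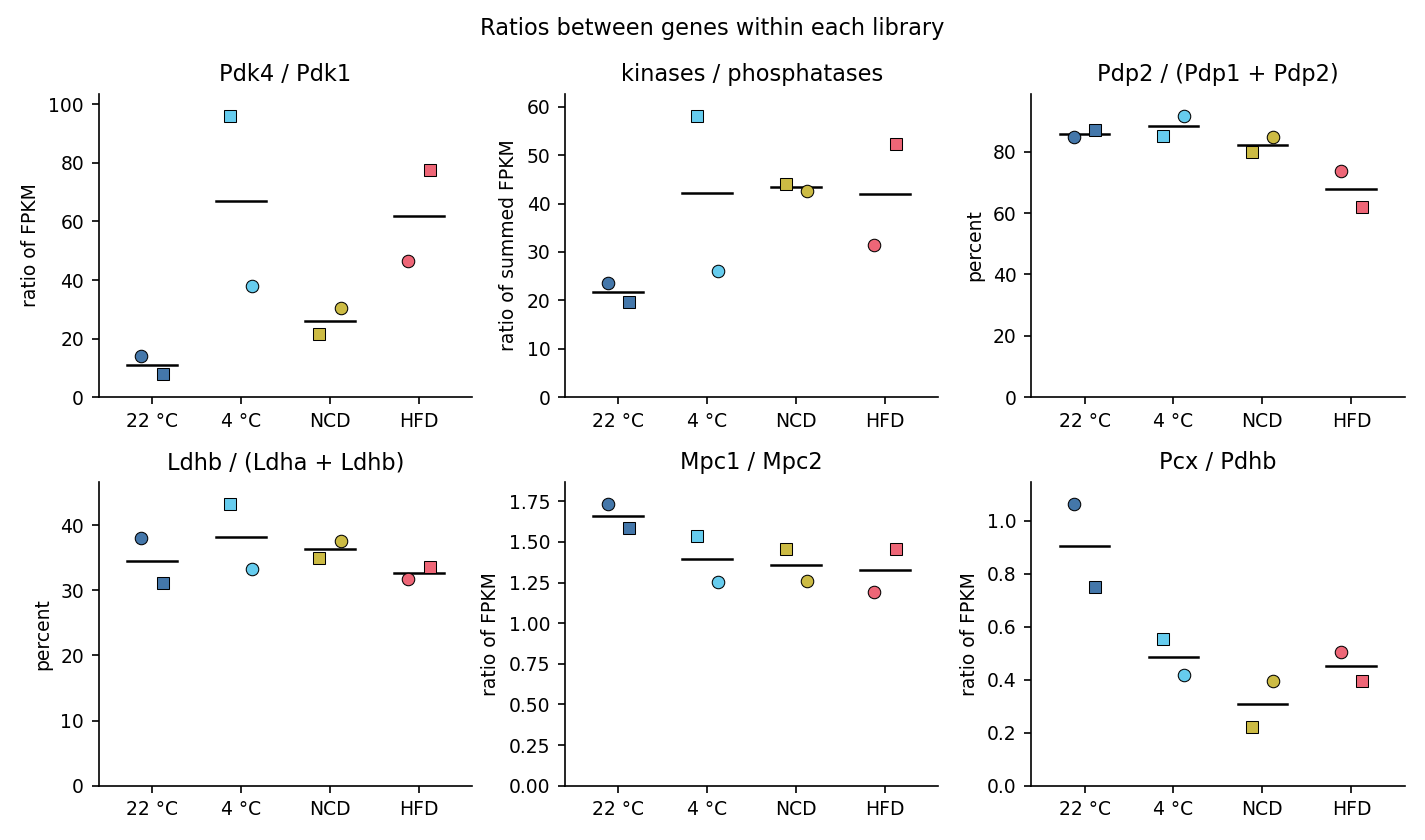
Ratios of FPKM between genes, or shares in percent (vertical axes, linear, from 0), in each library by group; circles are satellite-high and squares satellite-low libraries, and bars are means of 2. Pdk4 over Pdk1 is 8.06 and 14.2 at 22 °C against 37.8 and 96.0 at 4 °C, and the Pdp2 share is lowest on HFD at 62.0% and 73.7%.

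The cold and HFD responses were then set against each other over all 8 libraries, as the cold log2 fold change minus that on HFD. None of the 10 genes passed, and 1.04% of the 18902 genes tested did (limma). The difference was 1.93 for Pdk4 (SE 0.80, adjusted p 0.259), 1.64 for Ldhb (SE 0.66, adjusted p 0.242), 1.63 for Mpc2 (SE 0.68, adjusted p 0.259) and 1.13 for Pdp2 (SE 0.32, adjusted p 0.128). Those 4 genes had an unadjusted p under 0.05, as 3477 of all genes tested had. For Mpc1 and Ldha it was 1.41 (SE 0.77, adjusted p 0.385) and 1.19 (SE 0.74, adjusted p 0.456), which became 0.92 and 0.66 without NCD replicate 6 and 3.61 and 3.45 with the muscle covariate. That covariate also gave 3.56 for Mpc2, 3.23 for Ldhb, 2.65 for Pdk4 and 2.102 for Pdk1, with none passing. Without it, for Pdk1, Pdk2, Pdp1 and Pcx it lay between −0.21 and 0.64.

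Because muscle markers moved with both comparisons, the fits were repeated over all 8 libraries with the mean log2 level of the 11 markers as a covariate. The cold log2 fold change was then 2.24 for Ldha (SE 0.68, adjusted p 0.213), 2.13 for Ldhb (SE 0.67, adjusted p 0.221), 1.98 for Pdk4 (SE 0.92, adjusted p 0.317) and 1.92 for Mpc2 (SE 0.64, adjusted p 0.237), all larger than without it. Mpc1 with 1.80 (SE 0.73, adjusted p 0.282), Pcx with 0.84, Pdp2 with 0.77 and Pdp1 with 0.59 were also larger, while Pdk2 turned to −0.52. Pdk1 had −0.08 in the cold (SE 0.44, adjusted p 0.931) and −2.18 on HFD (SE 0.45, adjusted p 0.213). On HFD every gene but Pdp1 (0.09) was further from 0 in this fit than without the covariate, with Pdk2 and Pcx on the other side of 0 and Pdk4 at −0.67 and Pdp2 at −0.60. The carrier and lactate dehydrogenase genes were at −1.81 for Mpc1 (SE 0.74, adjusted p 0.42), −1.63 for Mpc2 (SE 0.66, adjusted p 0.413), −1.22 for Ldha (SE 0.70, adjusted p 0.554) and −1.10 for Ldhb (SE 0.68, adjusted p 0.59). None of the 10 genes passed in this fit, in which 0 of all genes tested passed in the cold and 1 on HFD. The fit takes the slope of the score from differences within groups. The score was higher in the satellite-high library at 22 °C (4.77 against 2.86), on NCD (6.49 against 4.74) and on HFD (3.52 against 1.04). At 4 °C it was lower there (6.61 against 7.53). The parts of muscle and library type in the larger values were not tested. The part of the macrophage, white adipocyte, erythroid and endothelial markers in the HFD values was not tested.

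Other genes of the pathway were taken from lists fixed with the tests. Of the 8 listed genes of the PDH complex and its regulators, 5 were tested, all 5 were higher in both cold libraries, all 5 had an unadjusted p under 0.05 and none passed (limma), beside 37.9% and 4280 of the 17477 genes tested. Their cold log2 fold changes ran from 0.58 to 1.25, the largest being Pdhx, a structural subunit, with 1.25 (SE 0.28, adjusted p 0.0779; 28.1 and 40.9 FPKM at 22 °C, 91.1 and 73.7 at 4 °C) and Pdhb with 1.22 (SE 0.36, adjusted p 0.123; 120 and 208, then 392 and 347 FPKM). On HFD all 5 overlapped, between −0.40 and 0.03, with Dld, a subunit shared with other dehydrogenase complexes, at −0.40 (SE 0.49, adjusted p 0.751) and Pdhb at −0.39 (SE 0.67, adjusted p 0.828). Pdha1, the X-linked alpha subunit, was at 184 to 482 FPKM in the 5 libraries with X values.

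Of 16 listed genes of lactate and pyruvate enzymes and transport 15 were tested. In the cold 1 passed, beside 1.44% of all genes tested. Hcar1, the lactate receptor of adipocytes, fell from 11.2 and 12.3 FPKM to 0.748 and 0.435 (log2 fold change −3.01, SE 0.19, adjusted p 0.0182, limma). On NCD and HFD it was at 0.426 to 1.72 FPKM. The next largest was Gpt2, which interconverts pyruvate and alanine, with 7.89 and 4.25 FPKM at 22 °C and 37.0 and 16.6 at 4 °C (log2 fold change 1.92, SE 0.45, adjusted p 0.0847). On HFD none passed and 2 had an unadjusted p under 0.05 (limma), beside 0.0684% and 2532 of the 17543 genes tested. The largest were Me1, the cytosolic malic enzyme that makes pyruvate, with −1.11 (SE 0.48, adjusted p 0.354; 95.1 and 53.0 FPKM on NCD, 29.4 and 35.8 on HFD) and Emb, a chaperone of lactate carriers, with 0.92 (SE 0.30, adjusted p 0.238). The cold and HFD responses of Me1 differed by 2.22 (SE 0.73, adjusted p 0.175).

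Of the 13 candidate regulators, 3 rose in the cold: Fgf21, a fasting and cold hormone, from 0.0611 and 0.104 FPKM to 12.6 and 5.91 (log2 fold change 3.16, SE 0.34, adjusted p 0.0299), the coactivator Ppargc1a from 10.9 and 10.8 to 107 and 73.6 (2.92, SE 0.25, adjusted p 0.0208), and the transcription factor Klf15 from 12.2 and 8.95 to 53.8 and 48.2 (2.18, SE 0.23, adjusted p 0.0294). Of the other 10, 9 were higher in both cold libraries without passing. Over all genes tested 1.44% passed and 37.9% were higher in both cold libraries. All 4 pathway calls in the cold were lost without 4 °C replicate 2, with no filter on low values and with the muscle covariate, fits in which 1 of 16819, 0 of 33811 and 0 of 17477 genes passed. The 4 fold changes kept their direction in these fits and stayed above 2-fold. None of the 13 passed on HFD and 1 had an unadjusted p under 0.05 (limma), beside 0.0684% and 2532 of the 17543 genes tested. There Angptl4, an inhibitor of lipoprotein lipase, had 0.96 (SE 0.51, adjusted p 0.448) and Foxo1 0.78 (SE 0.30, adjusted p 0.299). In the difference between the responses Hcar1 (−3.55, adjusted p 0.0105), Fgf21 (2.94, adjusted p 0.0358) and Ppargc1a (2.52, adjusted p 0.0367) passed, but these calls were lost in 4, 6 and 7 of 12 alternatives, with adjusted p up to 0.256, 0.378 and 0.444.

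**Figure D4:**
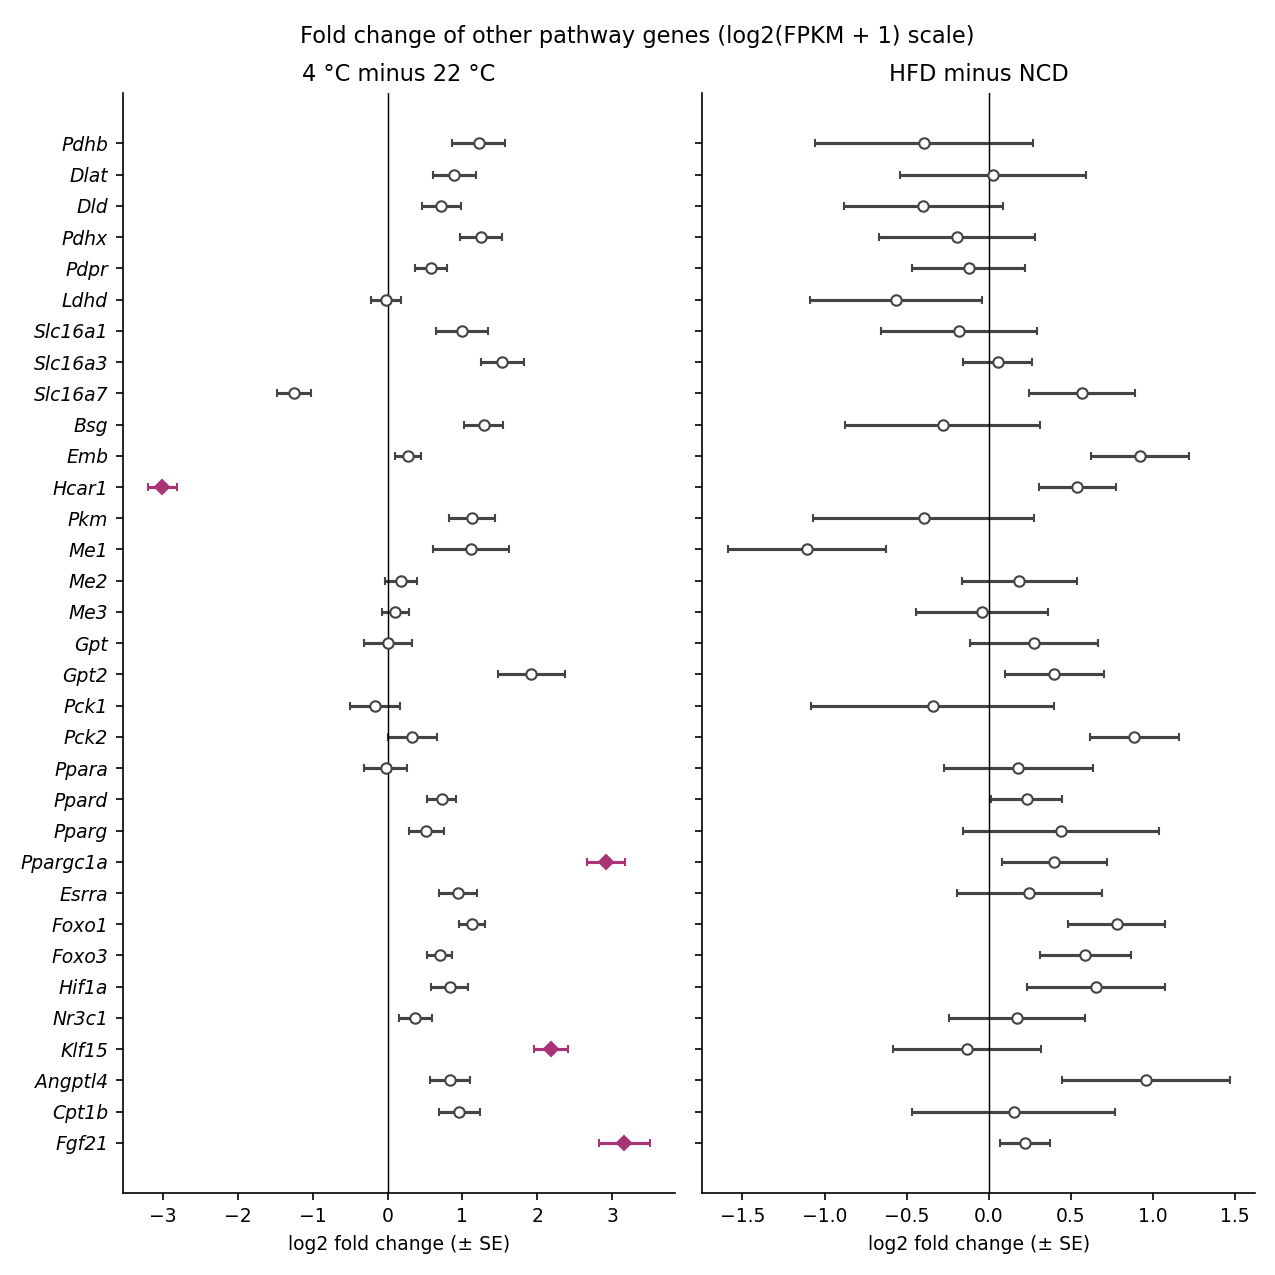
Log2 fold change (horizontal axis, log2(FPKM + 1) scale; the panels have different ranges) with its SE for the tested pathway genes in both comparisons. Filled diamonds passed the test: Hcar1 (−3.01), Ppargc1a (2.92), Klf15 (2.18) and Fgf21 (3.16) in the cold and none on HFD.

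The genes whose log2(FPKM + 1) was most like that of 4 of the genes over the 8 libraries were ranked by Pearson r among 10883 autosomal genes averaging 1 FPKM or more. Nearest to Pdk4 were 3110062M04Rik (r 0.987; 8.66 and 8.17 FPKM at 22 °C, 23.6 and 14.9 at 4 °C), Ptp4a3 (0.970) and Dnaja4 (0.966). Nearest to Pcx were Zfyve21 (0.983), Lamb1 (0.982) and B4galt1 (0.980). For Ldha they were Gm12350 (0.995; 0.961 to 2.28 FPKM in the temperature mice), which is annotated as a processed pseudogene and shares none of its 433 30-base words with Ldha transcripts, Fam195a (0.985) and Abhd5 (0.982). For Ldhb they were Car2 (0.986), Cib2 (0.985) and Dffa (0.985). Among the 10 genes themselves r was 0.938 between Ldha and Ldhb and 0.870 between Pdk4 and Ldhb, but −0.155 between Pdk4 and Pdk1. These coefficients are descriptions over 8 libraries of 4 groups and carry no p.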

How the data were processed

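RNA of 8 BAT libraries was depleted of ribosomal RNA, made into directional libraries and sequenced as paired ends. The authors mapped the reads to GRCm38 with TopHat2 2.0.10 and computed FPKM with Cufflinks (2.1.1 in the methods, 2.2.1 in the submitters' processing notes) on Ensembl release 87. The deposited table holds FPKM per gene and library, and its header does not name the unit. FPKM is divided by transcript length and library size, so levels of different genes can be compared and a few abundant genes can shift all others. If fragments were counted by strand is not given in the sources used here. The authors also ran DESeq2 on counts not used here, and no column of their comparisons was used.

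Each comparison was fitted on log2(FPKM + 1) of its own 4 libraries by lmFit and trended eBayes of limma (version 3.58.1, R 4.3.3), two-sided, after a filter of 0.1 FPKM in 2 libraries, without X, Y and mitochondrial genes. Benjamini-Hochberg adjustment covered every gene tested. Fold changes are on the log2(FPKM + 1) scale, which understates low genes. The scripts were tested on simulated data. Promoters, likeness and figures used Python 3.11.15 with pandas 2.3.3. All 10 genes are named. Of the other pathway genes, those past threshold and the 2 largest fold changes per list and comparison are named. Genes, lists and tests were chosen with earlier results of these data known. Alternatives were other pseudocounts, filters, scalings, covariates, sets of libraries and leaving out each library. Nothing in the labels says that replicates came from separate animals, so p-values measure the spread between these libraries. With 2 against 2 an exact permutation test cannot go below 0.333.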

Additional observations from a re-analysis of the deposited data

Results flagged for a closer look

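Of the 10 genes, 2 had both libraries of each treated group beyond both of its controls and in opposite directions. Pdp2 was higher in both cold libraries and lower in both HFD libraries, and the cold response minus the HFD response was 1.13 on the log2 scale (SE 0.32, adjusted p 0.128, limma). Mpc2 showed the same order, with a difference of 1.63 (SE 0.68, adjusted p 0.259, limma). Neither difference passed the threshold. Of the 16559 genes tested in both comparisons 2.96% showed this order.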

How the results depend on the processing

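The number of the 10 genes past threshold was 0 in each comparison. In the cold it was 1 (Ldhb) after median centring and with library type as a covariate, and 0 in the other 11 alternatives. Over all genes, median centring passed 757 and library type 859 of the 17477 tested, against 252. On HFD, among fits with no library left out, the number of the 10 genes past threshold was 1 (Pdk1) only with library type as a covariate. In that fit 745 of the 17543 genes tested passed. With 1 library left out the log2 fold change of Pdk1 ran from −1.85 to −0.98. For the difference between the responses the number was 0 in all alternatives. Counts of other pathway genes moved more: 4 in the cold became 0 with no filter or with the muscle covariate, 7 with a filter of 1 FPKM, 8 after median centring or with all 8 libraries in 1 fit, 10 with library type as a covariate, and 0 to 7 with 1 library left out (0 without 4 °C replicate 2, 7 without 22 °C replicate 7). On HFD 0 became 1 with library type as a covariate and 0 to 1 with 1 library left out (1 without NCD replicate 6 or HFD replicate 2). For the difference 3 became 0 with the muscle covariate (a fit chosen after seeing the data), 5 after median centring or with library type, and 0 to 4 with 1 library left out (0 without 22 °C replicate 4, HFD replicate 2 or HFD replicate 6, 1 without 22 °C replicate 7 or NCD replicate 8).

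Among alternatives with a test, signs of the 10 genes changed in 25 values, 351 kept sign and call and 4 gained a call. In the cold these were Pdk2 with the muscle covariate (−0.52), Pdp1 after median centring (−0.024) and Pcx after quantile normalization (−0.21). On HFD they were Pdk2 with the muscle covariate (0.98), Pcx after median centring (−0.16) and with the muscle covariate (−0.33), and 5 genes with 1 library left out: Pdk2 −1.09 to 0.88, Pdk4 −0.81 to 0.19, Pcx −0.078 to 0.48, Ldha −0.60 to 0.46 and Ldhb −0.74 to 0.14. For the difference they were Pdk2 −0.34 to 1.62, Pdp1 −0.50 to 0.070 and Pcx −0.16 to 0.42 with 1 library left out. In fits of the difference chosen after seeing the data, Pdk2 had −1.50 and Pdp1 0.50 with the muscle covariate, and Pcx −0.29 after quantile normalization. Values within a library type carry no test. There the sign also turned for Pdp1 in the cold (−0.087, satellite-high). On HFD it turned for Pdk2 (0.51, satellite-low) and Ldha (0.13, satellite-high). The pathway gene Pdhb ran from −1.04 to 0.25 on HFD with 1 library left out (0.25 without NCD replicate 6, 0.063 without HFD replicate 2). The cause was not tested. Over all genes, calls in the cold ran from 0 (no filter, or the muscle covariate) to 859 (library type) around 252, and on HFD from 0 (no filter, or quantile normalization) to 745 around 12. With 1 library left out, the lone library of a group is assumed to vary like the other group. No paired analysis was possible because the groups compared share fewer than 2 replicate numbers. Counting error was at most 3.8% for the 10 genes. Each comparison rests on 2 libraries a group, and the part of this in the lack of calls was not tested.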
